A study of Mus musculus with 11 samples.

Results

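The interferon response genes described here are 9 genes, taken by symbol from a table of 16228 genes: Ifih1, Stat2, Irf9, Irf7, Ifit1, Ifit3, Oasl2, Bst2 and Ifitm3. All 9 were found, and all 9 passed the filter on low values (3 or more libraries at a value of 1 or above), as did 14330 genes in all. The values come from bulk RNA sequencing of punches of mouse cerebral cortex at postnatal day 30, untreated, in 11 libraries that the series counts as biological replicates. The controls were 2 animals labelled Pkcz f/+ and 2 labelled Pkcz f/f, whose labels name no Cre. The knockouts were 4 animals labelled Ng2 Cre+ Prkci f/f (Prkci cKO) and 3 labelled Ng2-Cre+ Prkcz f/f (Prkcz cKO). The series asks what PRKCI and PRKCZ, atypical protein kinases of cell polarity, do in the oligodendrocyte lineage. Ng2-Cre is a recombinase driven from the gene of the NG2 proteoglycan, which oligodendrocyte precursors and pericytes carry, and which cells it recombined was not examined here. No Cre-positive control and no control of the Prkci line was among the samples, so genotype, Cre and line cannot be told apart.

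Type I interferons are secreted when a cell detects viral or misplaced nucleic acid. They bind a receptor whose kinases phosphorylate STAT2, and STAT2 joins IRF9 in a complex that enters the nucleus and binds the interferon-stimulated response element (ISRE) beside its target genes. The targets include antiviral effectors, the sensors that start the response and IRF7, which extends it. In uninfected brain the programme runs at a low level, and microglia, endothelial cells, astrocytes and neurons can all respond.

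The promoter windows of RefSeq on GRCm38.p6, which run from 250 bases before to 50 bases after each annotated start, were searched on both strands for the ISRE core, GAAA and GAAA separated by any 2 bases. It was found in 6 of the 9 genes (Ifit1, Ifit3, Stat2, Bst2, Ifitm3 and Ifih1). Over all genes it was found in 3.99% of 27025, and in 3.44% of 32851 windows of that length. Ifit1, Ifit3, Bst2 and Ifitm3 each had 2 matches. The sequences are shown because they carry the element through which these genes are known to be induced. They read 5′ to 3′ on the gene's strand with the matches in capitals, so a match on the opposite strand appears as its reverse complement, and positions are counted from the annotated start. For Ifit1, Ifit3 and Bst2 the 250 bases before the start are given, and for the others 30 bases around the matches.
Ifit1 (chr19:34640639-34640888, plus strand): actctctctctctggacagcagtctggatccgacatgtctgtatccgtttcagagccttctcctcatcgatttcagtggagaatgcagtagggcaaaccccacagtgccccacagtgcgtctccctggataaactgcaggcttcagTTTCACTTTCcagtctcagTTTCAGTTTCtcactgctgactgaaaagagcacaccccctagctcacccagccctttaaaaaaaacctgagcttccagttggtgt
Ifit3 (chr19:34583279-34583528, plus strand): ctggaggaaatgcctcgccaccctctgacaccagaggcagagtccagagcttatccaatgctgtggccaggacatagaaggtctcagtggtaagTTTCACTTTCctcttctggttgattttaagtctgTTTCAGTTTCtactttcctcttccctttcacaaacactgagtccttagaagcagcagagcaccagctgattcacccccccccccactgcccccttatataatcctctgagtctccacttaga
Bst2 (chr8:71537473-71537722, minus strand): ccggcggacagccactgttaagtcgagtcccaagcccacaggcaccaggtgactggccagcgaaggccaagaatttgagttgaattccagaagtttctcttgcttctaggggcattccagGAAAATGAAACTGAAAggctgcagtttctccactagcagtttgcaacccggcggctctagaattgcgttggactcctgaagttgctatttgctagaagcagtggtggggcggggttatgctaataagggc
Stat2 (chr10:128270266-128270295, plus strand): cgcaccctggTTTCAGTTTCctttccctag
Ifitm3 (chr7:141010714-141010743, minus strand): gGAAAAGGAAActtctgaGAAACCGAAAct
Ifih1 (chr2:62646206-62646235, minus strand): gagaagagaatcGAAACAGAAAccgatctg

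The paired matches of Ifit1, at -104 to -95 and -85 to -76, and of Ifit3, at -156 to -147 and -122 to -113, held the same letters. Read on the opposite strand, the match farther from the start was GAAAGTGAAA and the nearer one GAAACTGAAA. The single match of Stat2 at -222 to -213 was also GAAACTGAAA. The Stat2 window ended at 128270547, before the gene start of 128270559 given below. Its last bases were not found in the transcript, unlike those of the other windows. The Stat2 position, and its place among the 6 genes with a match, therefore depend on the RefSeq start. In Bst2 the matches overlapped, at -130 to -121 and -124 to -115. Those of Ifitm3, at 3 to 12 and 20 to 29, and of Ifih1, at 33 to 42, lay after the annotated start. The gamma-activated sequence (GAS) TTCNNNGAA, bound by STAT dimers in the response to interferon gamma, was found in Bst2 (-136 to -128) and Ifitm3 (14 to 22). In each it overlapped an ISRE core. It was found in 9.55% of all genes and 8.30% of all windows. Irf7, Irf9 and Oasl2 held neither set of letters in these windows. Among the other interferon genes with a window, the ISRE core was present in 17 of 37 antiviral effectors, 9 of 11 genes of the interferon gamma type, 5 of 15 class I presentation genes, 2 of 18 receptor and signalling genes and 2 of 14 nucleic acid sensing genes. A match is a description of the letters and not of binding.

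**Figure D1:**
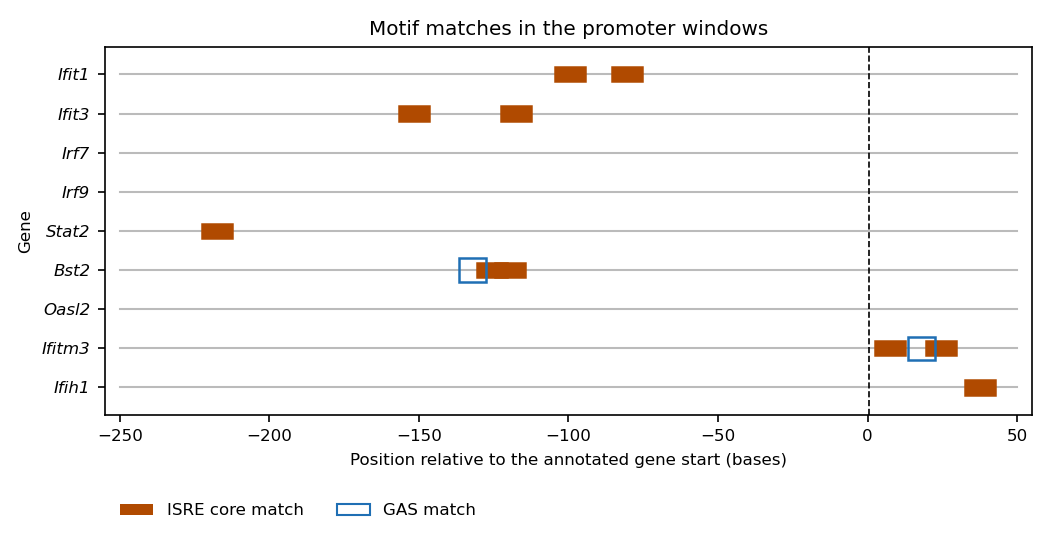
Positions of motif matches (x axis, bases from the annotated start, which is the dashed line) in the promoter window of each of the 9 genes (rows). Filled boxes are ISRE core matches and open boxes are GAS matches. Ifit1, Ifit3, Stat2 and Bst2 have their ISRE cores before the start, Ifitm3 and Ifih1 after it, and Irf7, Irf9 and Oasl2 have none.

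Levels are the deposited normalised expression signal, a value per gene scaled by library size, so that columns sum to between 1021767 and 1082562. The depth estimated from the step between low values was lowest in Prkcz cKO replicate 3, at 14810000 reads, and 20620000 to 28170000 elsewhere. At that depth the 9 genes correspond to roughly 21 to 640 reads per library, with Irf7 at 21 to 60, Bst2 at 21 to 57 and Stat2 at 304 to 640, so counting error is largest for Irf7 and Bst2. Prkci was lower in every Prkci cKO library (65.04 to 68.25) than in every control (85.28 to 90.69), and Prkcz in every Prkcz cKO library (262.39 to 292.47) than in every control (297.97 to 347.46). Markers of cortical excitatory neurons were present in all libraries, with 12 genes that summed to between 7810 and 8730. Markers of striatum, which lies beneath the cortex, summed to 524 to 859 in Prkci cKO, 922 to 1430 in controls and 936 to 1870 in Prkcz cKO, although none of 14 striatal genes was called in any comparison. Immediate early genes summed to 777 to 1510 in controls, 638 to 749 in Prkci cKO and 546 to 745 in Prkcz cKO. Of 15 oligodendrocyte lineage genes, 12 were called lower in Prkci cKO and 6 in Prkcz cKO relative to controls, and 14 had changes below 0 in each. Their sums were 2940 to 4630 in Prkci cKO, 3920 to 4260 in Prkcz cKO and 5440 to 8100 in controls. The part of these differences in the values of the 9 genes was not tested. In bulk tissue, fewer cells of a type and less RNA per cell cannot be told apart.

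None of the 9 genes passed the test in any of the 3 comparisons (limma over 14330 genes, Benjamini-Hochberg adjusted p threshold 0.05). Among all genes, 1.61% were called for Prkci cKO relative to controls, 0.649% for Prkcz cKO and 0.3% between the knockouts. At an unadjusted p under 0.05 the counts were 1, 1 and 4 of 9, against 12.1%, 15.0% and 16.0% of all genes. The median log2 change of the 9 genes relative to controls was 0.16 in Prkci cKO and -0.13 in Prkcz cKO, and the median difference between the knockouts was 0.30. The medians over all genes were 0.00209, -0.00608 and -0.00544. Both comparisons with controls use the same 4 control libraries. All changes are on the scale of log2(value + 0.5), which understates the change of low genes.

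Per kilobase of annotated exon, the mean over 11 libraries was highest for Ifitm3 (10.5), followed by Stat2 (3.65), Ifit3 (3.52), Bst2 (1.69), Irf9 (1.11), Ifih1 (0.837), Ifit1 (0.830), Oasl2 (0.507) and Irf7 (0.458). The length used was the union of all annotated exons of a gene. For Irf7 this union (3776 bases) covered the whole gene, and for Irf9 (5386 bases) most of it. The places of Irf7 and Irf9 in this order therefore depend on the length used. The library ranges of neighbours in this order overlapped except between Ifitm3 (7.61 to 12.8) and Stat2 (3.32 to 4.25) and between Ifit3 (2.72 to 4.84) and Bst2 (1.03 to 2.24). Irf9 overlaps Rnf31 on the same strand and Irf7 overlaps Phrf1 on the opposite strand in GENCODE M21, and the use of strand in counting was not given in the sources used here. Ifit1, Ifit3 and Ifitm3 belong to families of close copies whose reads the counting may split.

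**Figure D2:**
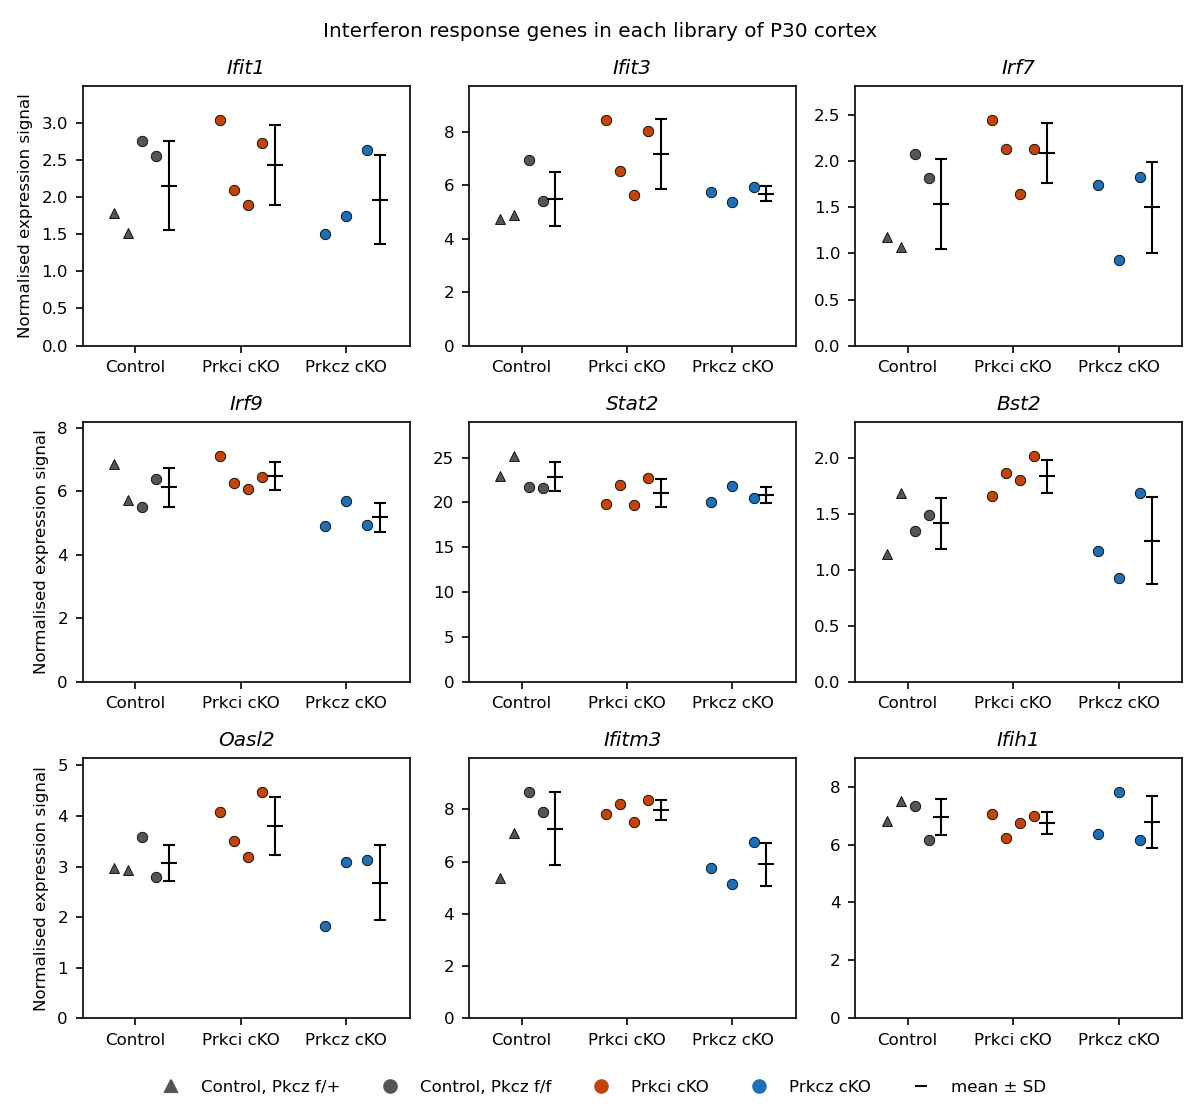
Normalised expression signal (y axis) of each gene in each library (points), by group (x axis), with triangles for the Pkcz f/+ controls and the mean ± SD of each group as a bar. Ifitm3, Oasl2 and Irf9 are higher in all 4 Prkci cKO libraries than in all 3 Prkcz cKO libraries, and no gene separates either knockout from all controls.

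The sensor was examined first. Ifih1 (chromosome 2, 62595798 to 62646255) encodes MDA5, a cytoplasmic receptor for long double-stranded RNA. It read 6.83, 7.5, 7.35 and 6.15 in controls 1 to 4, 7.07, 6.22, 6.75 and 6.99 in Prkci cKO and 6.36, 7.81 and 6.16 in Prkcz cKO. The 3 groups overlapped throughout, and the highest value and the second lowest were both Prkcz cKO libraries. The means were 6.96 ± 0.610 (SD, n = 4), 6.76 ± 0.383 (SD, n = 4) and 6.78 ± 0.900 (SD, n = 3). The log2 change was -0.04 in both comparisons with controls, with 95% intervals of -0.24 to 0.17 for Prkci cKO and -0.26 to 0.18 for Prkcz cKO (adjusted p = 0.920 and 0.880).

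Of the factors that carry the signal to the nucleus, Stat2 had the highest values of the 9 genes. Stat2 (chromosome 10, 128270559 to 128292849) encodes the subunit that brings the activation domain to the complex with IRF9. It read 22.93, 25.17, 21.72 and 21.66 in controls, 19.84, 21.99, 19.7 and 22.71 in Prkci cKO and 20.09, 21.8 and 20.52 in Prkcz cKO. In each knockout 2 libraries lay below every control, the others lay within the control range, and the 2 highest values of all were the Pkcz f/+ controls. The log2 change was -0.12 in Prkci cKO (SE 0.0685, adjusted p = 0.548) and -0.13 in Prkcz cKO (SE 0.0740, adjusted p = 0.424). Between the knockouts the difference was 0.02, with an interval of -0.14 to 0.17.

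Irf9 (chromosome 14, 55603571 to 55610030) encodes the DNA-binding subunit of the same complex. It read 6.87, 5.73, 5.52 and 6.38 in controls, 7.11, 6.27, 6.07 and 6.46 in Prkci cKO and 4.9, 5.69 and 4.94 in Prkcz cKO. Prkci cKO lay within or just above the controls, and Prkcz cKO replicates 1 and 3 were the lowest of the 11 libraries. The means were 6.12 ± 0.617 (SD, n = 4) for controls, 6.48 ± 0.451 (SD, n = 4) for Prkci cKO and 5.18 ± 0.445 (SD, n = 3) for Prkcz cKO. The log2 change in Prkcz cKO was -0.22 (95% interval -0.44 to -0.00256) and did not pass over all genes (adjusted p = 0.329). Between the knockouts, every Prkci cKO library exceeded every Prkcz cKO library, with a difference of 0.30 (interval 0.08 to 0.52, adjusted p = 0.215).

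Irf7 (chromosome 7, 141262706 to 141266481) encodes the factor that sustains interferon production once the response has begun, and was among the lowest of the 9 genes. It read 1.18, 1.07, 2.08 and 1.82 in controls, 2.45, 2.13, 1.65 and 2.13 in Prkci cKO and 1.74, 0.93 and 1.83 in Prkcz cKO. In 3 of 4 Prkci cKO libraries it was above every control, while the controls themselves split by genotype label, the Pkcz f/+ animals near 1 and the f/f animals near 2. The log2 change in Prkci cKO was 0.37 with an interval of -0.06 to 0.80 (adjusted p = 0.506). In Prkcz cKO it was -0.03 with an interval of -0.49 to 0.44, wide enough that a moderate change in either direction was not detectable at this depth and number of animals.

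The IFIT proteins are effectors that bind viral RNA lacking host cap marks. Ifit3 (chromosome 19, 34583531 to 34588731) read 4.74, 4.88, 6.94 and 5.4 in controls, 8.44, 6.54, 5.64 and 8.04 in Prkci cKO and 5.74, 5.38 and 5.92 in Prkcz cKO. Prkci cKO replicates 1 and 4 were the highest of all libraries, and the other Prkci cKO libraries lay among the controls. The Prkci cKO mean of 7.17 ± 1.30 (SD, n = 4) and the control mean of 5.49 ± 1.01 (SD, n = 4) give 0.35 on the log2 scale (SE 0.135, interval 0.06 to 0.64), the smallest p of the 9 genes in that comparison, and it did not pass over all genes (adjusted p = 0.287). In Prkcz cKO the mean was 5.68 ± 0.275 (SD, n = 3), a change of 0.06 (interval -0.25 to 0.37).

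Ifit1 (chromosome 19, 34640871 to 34650009), its neighbour, read 1.79, 1.51, 2.76 and 2.55 in controls, 3.04, 2.09, 1.89 and 2.73 in Prkci cKO and 1.5, 1.75 and 2.64 in Prkcz cKO. The groups overlapped, and the spread within each group was 22.1% to 30.5% of its mean. The log2 changes were 0.16 in Prkci cKO (interval -0.26 to 0.58) and -0.11 in Prkcz cKO (interval -0.56 to 0.35), with adjusted p = 0.812 and 0.840. With 1 library left out the Prkci cKO value ran from 0.03 (without control replicate 2) to 0.27 (without control replicate 3).

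Oasl2 (chromosome 5, 114896936 to 114912234) encodes a protein of the oligoadenylate synthetase family. It read 2.98, 2.93, 3.58 and 2.79 in controls, 4.08, 3.51, 3.18 and 4.47 in Prkci cKO and 1.82, 3.09 and 3.12 in Prkcz cKO. Prkci cKO replicates 1 and 4 were again the highest, Prkcz cKO replicate 1 was the lowest, and the knockouts did not overlap. The difference between the knockouts, at 3.81 ± 0.576 (SD, n = 4) against 2.68 ± 0.742 (SD, n = 3), was 0.46 on the log2 scale (interval 0.10 to 0.82, adjusted p = 0.234), and 0.25 without Prkcz cKO replicate 1. Against controls the changes were 0.27 in Prkci cKO (adjusted p = 0.541) and -0.19 in Prkcz cKO (adjusted p = 0.606).

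Bst2 (chromosome 8, 71534255 to 71537456) encodes tetherin, a membrane protein that holds budding virus on the cell surface. It read 1.14, 1.69, 1.35 and 1.49 in controls, 1.66, 1.87, 1.81 and 2.02 in Prkci cKO and 1.17, 0.93 and 1.69 in Prkcz cKO. In 3 of 4 Prkci cKO libraries it was above every control and every Prkcz cKO library, and the fourth overlapped both groups. The log2 change in Prkci cKO was 0.29 (interval -0.04 to 0.63, adjusted p = 0.492), and in Prkcz cKO -0.14 (interval -0.49 to 0.22, adjusted p = 0.726). The difference between the knockouts was 0.43 (SE 0.167, adjusted p = 0.251).

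Ifitm3 (chromosome 7, 141009586 to 141010770) encodes a membrane protein that blocks the fusion of viruses in endosomes. It read 5.38, 7.1, 8.66 and 7.92 in controls, 7.82, 8.22, 7.52 and 8.38 in Prkci cKO and 5.75, 5.16 and 6.77 in Prkcz cKO. All Prkci cKO libraries were above all Prkcz cKO libraries, while the controls ran from a Pkcz f/+ animal at 5.38 to an f/f animal at 8.66 and overlapped both knockouts; 1 Prkcz cKO library lay below every control. The knockouts, at 7.98 ± 0.389 (SD, n = 4) and 5.89 ± 0.815 (SD, n = 3), differed by 0.41 (interval 0.12 to 0.71), the smallest p of the 9 genes in that comparison (adjusted p = 0.205). Against controls at 7.27 ± 1.41 (SD, n = 4), the changes were 0.15 in Prkci cKO and -0.27 in Prkcz cKO (adjusted p = 0.708 and 0.375). The Prkci cKO value ran from 0.02 (without control replicate 1) to 0.23 (without control replicate 3).

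**Figure D3:**
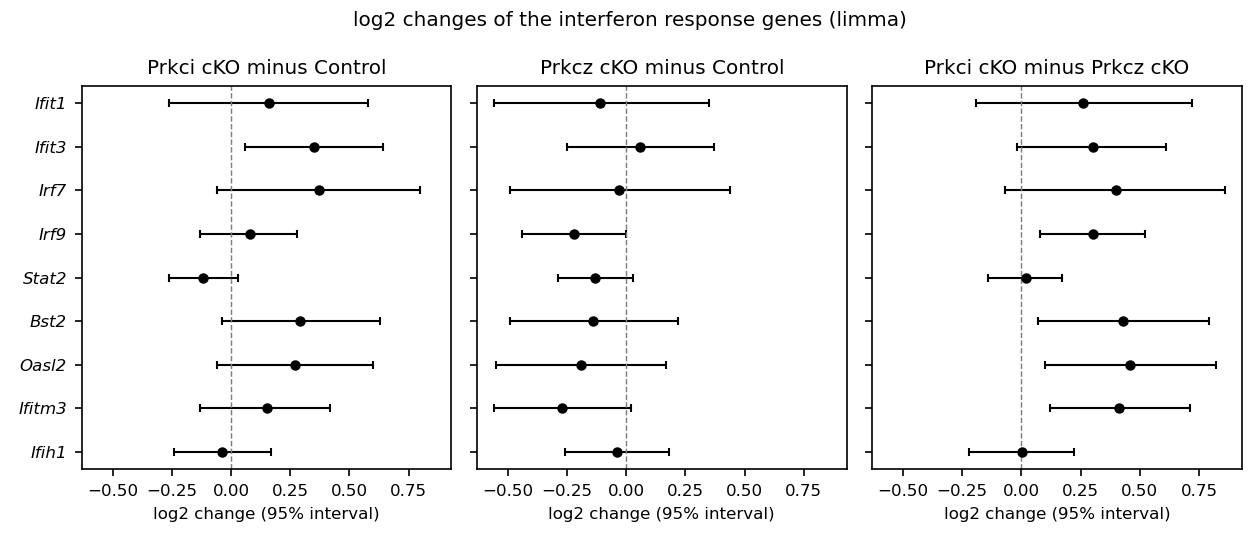
Fitted log2 changes (x axis) of the 9 genes (rows) with 95% intervals, for each knockout against controls and between the knockouts. The intervals of Irf9, Bst2, Oasl2 and Ifitm3 lie above 0 between the knockouts, as does that of Ifit3 in Prkci cKO, and that of Irf9 lies just below 0 in Prkcz cKO; none of these passed over all genes.

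The knockouts were also compared with each other. Ifitm3, Oasl2 and Irf9 were higher in 4 of 4 Prkci cKO libraries than in any Prkcz cKO library, which was true of 7.36% of all genes tested, and no member was lower without overlap, against 6.43%. Of the 4 members at an unadjusted p under 0.05 (Ifitm3, Irf9, Oasl2 and Bst2) all were higher in Prkci cKO, a direction taken at that level by 9.76% of all genes. Stat2 and Ifih1 differed by 0.02 and 0.00173. For Ifit3, Irf7 and Ifit1 the differences were 0.30, 0.40 and 0.26, with intervals that reached 0. Single libraries moved several of these values: without Prkcz cKO replicate 2 the difference was 0.17 for Irf7 and 0.29 for Bst2, and without Prkcz cKO replicate 1 it was 0.13 for Ifit1, while without Prkcz cKO replicate 3 Ifit1 was at 0.45. In the comparisons with controls no member was free of overlap, against 8.49% of all genes in Prkci cKO and 11.9% in Prkcz cKO. Without Prkcz cKO replicate 3 the median difference of the 9 genes between the knockouts was 0.45 in place of 0.30.

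Markers of vessels and of other cell types also differed between the knockouts, some lists upward in Prkci cKO and some downward. Among all genes tested, 48.5% had differences above 0 in this comparison. Genes of a list were measured in the same libraries, so their directions are not independent. Of 18 endothelial genes 6 passed as higher in the Prkci than the Prkcz knockouts and 18 of 18 had differences above 0, with a median of 0.33. Their summed level was 390 to 428 in Prkci cKO, 344 to 386 in controls and 289 to 296 in Prkcz cKO, and no endothelial marker was at 0. Flt1, a receptor for vascular endothelial growth factor, was 46.5 ± 2.29 (SD, n = 4) against 28.8 ± 2.21 (SD, n = 3), or 0.68 on the log2 scale (adjusted p = 0.00140). Of 12 pericyte and mural genes 2 passed as higher and 11 had differences above 0 (median 0.37), with sums of 184 to 213 against 149 to 165. No microglial gene of 18 passed and 14 had differences above 0 (median 0.07), while their sums overlapped (587 to 651 against 574 to 607). Cx3cr1, the fractalkine receptor of microglia, was 69.2 ± 1.69 (SD, n = 4) against 62.5 ± 1.76 (SD, n = 3), limma adjusted p = 0.179. Border macrophage genes summed to 26.4 to 33.2 against 21.1 to 22.5. Of 12 astrocyte genes none was called and 11 had differences above 0 (median 0.15), with sums of 6050 to 6830 against 4620 to 5830, which did not overlap. Most of that sum was 1 gene, Slc1a2, at 4210 ± 271 (SD, n = 4) against 3480 ± 617 (SD, n = 3). Of 12 fibroblast and meningeal genes none was called and 12 had differences above 0 (median 0.29), with sums of 293 to 366 against 272 to 294. Going the other way, 14 of 14 striatal genes (median -0.94) and 10 of 11 choroid plexus and ependymal genes (median -0.30) had differences below 0. So did 11 of 15 oligodendrocyte lineage genes (median -0.16), and no gene of these lists was called between the knockouts. Of 14 markers of lymphocytes and blood leukocytes 3 were in the table, with sums of 0.44 to 1.55 per library, and none passed the filter on low values. The part of these cell types in the values of the interferon genes was not tested.

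The controls were not uniform. Ifit1, Ifit3, Irf7 and Ifitm3 were higher in both Pkcz f/f controls than in both Pkcz f/+ controls, a pattern found in 23.2% of all genes, and Stat2 was lower in both, as were 24.0% of all genes. In a fit with the controls as 2 groups, chosen after the values were seen, the f/f minus f/+ difference was 0.59 for Irf7 (interval 0.07 to 1.11), 0.56 for Ifit1 (0.04 to 1.07), 0.39 for Ifitm3 (0.08 to 0.71) and 0.32 for Ifit3 (-0.06 to 0.70), with adjusted p = 0.362, 0.376, 0.323 and 0.472. None of the 9 genes passed there, where 0.154% of all genes did, and 3 of 9 had an unadjusted p under 0.05, against 12.6%. Against the f/f controls alone the median change of the 9 genes was 0.07 in Prkci cKO, against 0.31 when set against the f/+ controls, and Ifit1 (-0.12) and Ifitm3 (-0.05) then had negative values in Prkci cKO. For Prkcz cKO the medians were -0.18 and -0.08. Sums of microglial genes were 588 to 596 in the f/+ and 636 to 647 in the f/f controls, and those of border macrophage genes 18 to 23.1 and 26.8 to 36.4. Oligodendrocyte lineage genes went the other way, at 7010 to 8100 in the f/+ and 5440 to 5910 in the f/f controls, as did astrocyte genes, at 6390 to 6620 and 6010 to 6100. The part of these differences in the values was not tested.

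**Figure D4:**
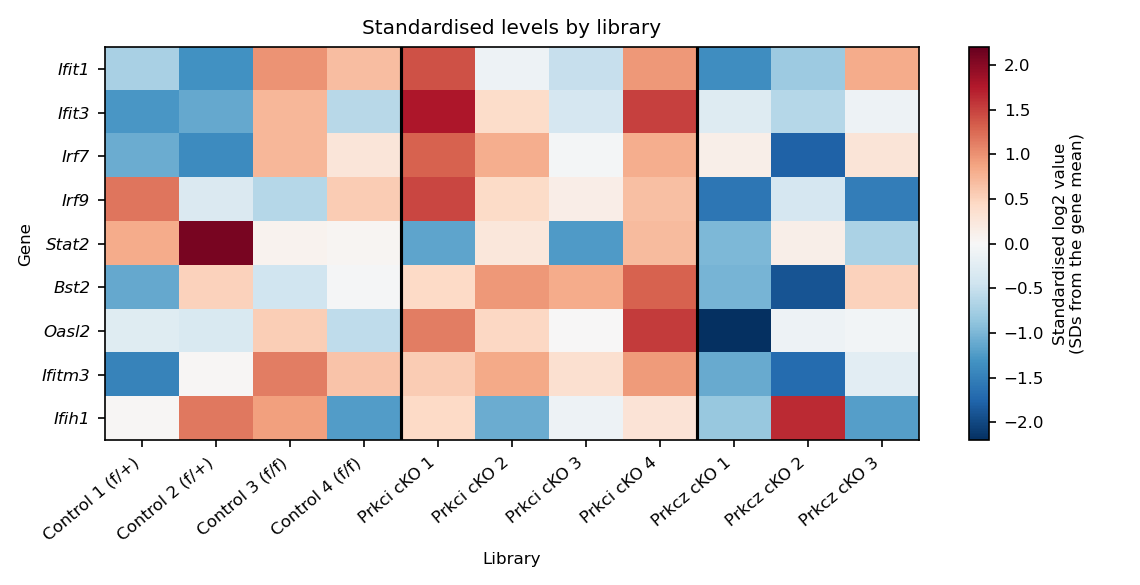
Log2 values of the 9 genes (rows) in the 11 libraries (columns), each gene standardised to its own mean and SD over all libraries, with red above and blue below the mean. Prkci cKO 4 is above the mean for 9 of 9 genes and Prkci cKO 1 for 8, while Prkcz cKO 1 is above it for 1 of 9.

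The genes differed in how they followed one another across animals. Averaged over the 9 genes in SDs from each gene's mean, the highest libraries were Prkci cKO replicate 4 (0.967) and replicate 1 (0.813) and the lowest was Prkcz cKO replicate 1 (-1.04). Control replicate 3 stood at 0.447 and control replicate 1 at -0.436, so the controls spread over much of the range between the knockouts. Of 36 pairs of genes, 28 had a positive Pearson correlation over the 11 libraries, with a median of 0.309, and the median was 0.149 for deviations from the group means. Ifit3 and Irf7 were the closest pair, with r = 0.823 and Spearman's rho = 0.920 (permutation p = 0.00283 and 2.3e-04 over 100000 resamples, adjusted over 36 pairs 0.0524 and 0.00828). Their r was 0.801 without the 2 libraries farthest from the median of Ifit3, and 0.738 for deviations from the group means. Bst2 and Ifitm3 had r = 0.790 (permutation p = 0.00496, adjusted 0.0524), Spearman's rho = 0.597 (permutation p = 0.0566, adjusted 0.185), and r = 0.499 without the 2 libraries farthest from the median of Bst2. Adjusted over the pairs, Pearson's r passed for none, while 9 of 36 had a permutation p under 0.05 before adjustment. Ifit1, Ifit3, Irf7, Oasl2 and Ifitm3 made up 8 of those 9 pairs, and Stat2, Irf9 and Ifih1 were in none of them.

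The 8 other genes most like the mean of the 9, among 12128 genes whose log2 values averaged 2 or more, were Lair1 (r = 0.927), Msn (0.923), Csf1r (0.904), A130022J15Rik (0.904), Glb1l (0.894), Nadk (0.890), Arap3 (0.888) and Eln (0.880), over 11 libraries. The libraries differed in depth (14810000 to 28170000 reads) and in summed markers of choroid plexus, striatum and meninges. The part of these differences in the likeness was not tested. The 8 genes were chosen for this likeness, which is therefore a description. Csf1r, the receptor that maintains microglia, averaged 109 ± 5.18 (SD, n = 4) for Prkci cKO, 106 ± 5.07 (SD, n = 4) for controls and 95.7 ± 1.84 (SD, n = 3) for Prkcz cKO. Eln, the elastin of vessel walls, was 16.1 ± 3.27, 13.5 ± 3.30 and 8.88 ± 0.415 in the same order. Msn, a linker of membrane and actin, was 31.0 ± 1.91, 28.6 ± 0.656 and 25.4 ± 1.45. None of the 8 passed in any comparison.

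The rest of the pathway was taken from 5 lists of other interferon genes. Of 36 other antiviral effectors tested, none was called in Prkci cKO against controls, 1 was lower in Prkcz cKO and the same gene was higher in the Prkci than the Prkcz knockouts. This was Slfn5, a Schlafen family gene induced by interferon. It read 8.93, 9.46, 10.89 and 12.06 in controls, 11.35, 10.13, 9.49 and 9.62 in Prkci cKO and 6.64, 6.27 and 7.11 in Prkcz cKO. All 3 Prkcz cKO libraries were below every other library. In either direction, 11.9% of all genes separated Prkcz cKO from controls. Between the knockouts, 7.36% of all genes were higher without overlap in Prkci cKO. Slfn5 fell by 0.59 on the log2 scale in Prkcz cKO (SE 0.106, adjusted p = 0.0267), and the knockouts differed by 0.57 (SE 0.106, adjusted p = 0.0412). Both calls depended on single libraries: the first ended without control replicate 3 or any 1 of the Prkcz cKO libraries, and the second without any 1 of the knockout libraries, with adjusted p up to 0.111 and 0.142. With 1 library left out the values stayed between -0.65 and -0.51 and between 0.52 and 0.61. Both also ended in the fit with the replicate number as a block (adjusted p = 0.0679 and 0.0656). Endothelial genes were lower in the same libraries (2 of 18 called in Prkcz cKO, 17 of 18 below 0). So were pericyte and mural genes (2 of 12 called, 12 below 0) and astrocyte genes (1 of 12 called, 12 below 0). Of 18 microglial genes none was called and 14 were below 0, while 10 of 11 choroid plexus and ependymal genes were above 0. The part of these cell types in the Slfn5 value was not tested.

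Parp14, a mono-ADP-ribosyltransferase, was 3.89 ± 0.237 (SD, n = 4) in controls, 4.64 ± 0.916 (SD, n = 4) in Prkci cKO and 2.64 ± 0.547 (SD, n = 3) in Prkcz cKO, and its difference of 0.71 between the knockouts did not pass (adjusted p = 0.0717). Ifitm2, the neighbour and close relative of Ifitm3, differed by 0.46 (adjusted p = 0.153) and Trim30a by 0.68 (adjusted p = 0.163). The median change of the effectors was 0.05 in Prkci cKO, -0.12 in Prkcz cKO and 0.15 between the knockouts.

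No gene passed in the other lists. Of 15 genes of the interferon gamma type, mostly guanylate binding proteins and immunity-related GTPases that act on intracellular pathogens, 15 had differences above 0 between the knockouts, with a median of 0.32. Among all genes tested the share above 0 was 48.5%. Genes of a list were measured in the same libraries, so their directions are not independent. Gbp5 was 2.24 ± 0.148 (SD, n = 4) in controls, 1.73 ± 0.339 (SD, n = 4) in Prkci cKO and 1.33 ± 0.0902 (SD, n = 3) in Prkcz cKO (adjusted p = 0.0853 for the last against controls), and Gbp3 differed between the knockouts by 0.51 (adjusted p = 0.130). Several of these genes have close copies. Gvin1, chosen after its values were seen, is listed at 0 in control replicate 3 and Prkcz cKO replicate 2 and at 2.12 to 5.89 in the others. Among 16 genes of class I antigen presentation the median changes were 0.09, -0.02 and 0.12 in the order of the comparisons. H2-K1, a class I heavy chain, was 13.3 ± 0.654 (SD, n = 4) in controls, 15.2 ± 1.29 (SD, n = 4) in Prkci cKO and 12.5 ± 1.52 (SD, n = 3) in Prkcz cKO (adjusted p = 0.408, 0.639 and 0.200). Psme1, a proteasome activator subunit, had changes of 0.24 in Prkci cKO and 0.26 in Prkcz cKO (adjusted p = 0.198 and 0.176).

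Receptors and signalling components had medians near 0 (-0.01, -0.04 and 0.08 over 19 genes). Irf1, a factor of the interferon gamma response, was above every control (2.93 to 3.92) in all 4 Prkci cKO libraries (3.95 to 4.82) and all 3 Prkcz cKO libraries (4.29 to 5.03). In either direction, 8.49% of all genes separated Prkci cKO from controls without overlap, and 11.9% separated Prkcz cKO. The log2 changes of Irf1, 0.30 and 0.38, did not pass (limma adjusted p = 0.269 and 0.172). For Ifngr2, a chain of the interferon gamma receptor, the log2 changes were 0.11 and 0.18 (adjusted p = 0.312 and 0.111). Among 17 nucleic acid sensing genes the medians were -0.08, -0.06 and -0.00206. Mavs, the adaptor on mitochondria to which MDA5 signals, was 8.16 ± 0.642 (SD, n = 4) in controls and 6.79 in both knockouts (± 0.377, SD, n = 4, and ± 0.342, SD, n = 3), with log2 changes of -0.25 in each that did not pass (adjusted p = 0.210 and 0.226). Traf3, an adaptor downstream of the sensors, differed by 0.41 between the knockouts (adjusted p = 0.145).

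**Figure D5:**
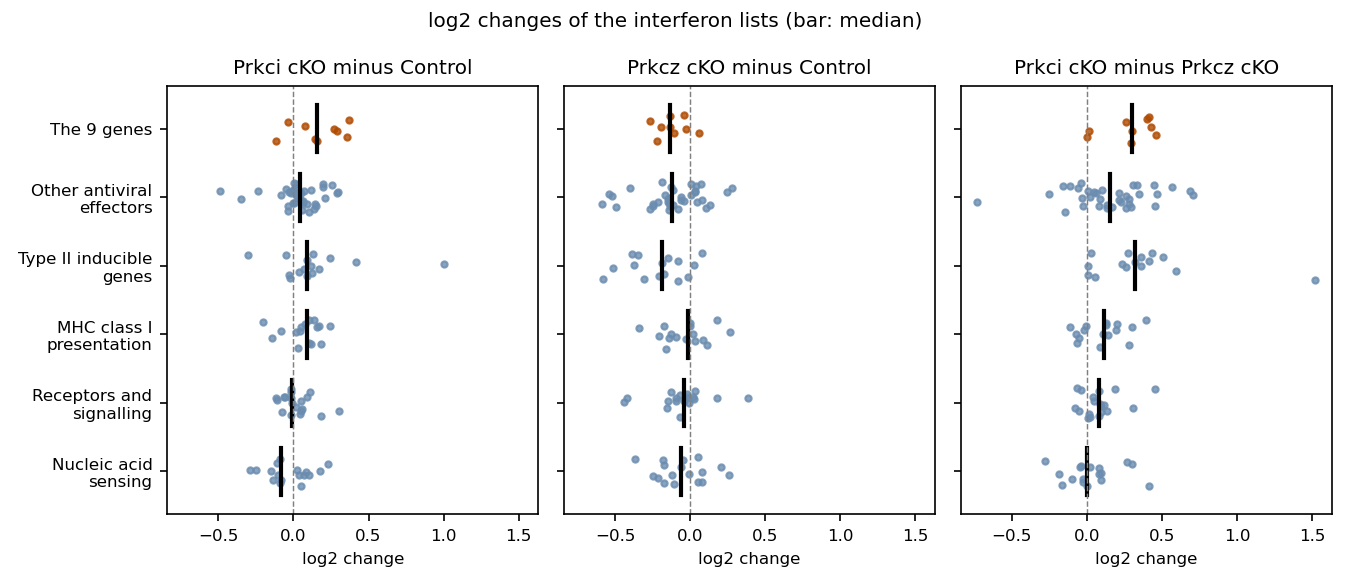
Log2 changes (x axis) of single genes (points) in the 9 interferon response genes and the 5 other interferon lists (rows), with the median of each list as a bar, for the 3 comparisons. The medians of the 9 genes are 0.16, -0.13 and 0.30, and the isolated point among the type II inducible genes in the comparisons with Prkci cKO is Gvin1.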

How the data were processed

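Total RNA of cortex punches was sequenced in 11 libraries. Per the submitters' processing notes, FastQC, Trim Galore, STAR, RSEM and edgeR were used on GRCm38; versions, annotation and strand setting were not given in the sources used here. What the authors deposited is a scaled signal for each gene, rounded to 2 decimals. In each library 86.2% to 89.8% of the values below 0.5 fell on multiples of 1 step (tolerance 0.005). The step gave the depth; too few values were whole reads for a count test. Genes reaching 1 in 3 or more libraries were taken as log2(value + 0.5) and fitted with limma 3.58.1 in R 4.3.3 (variance trend, all 11 libraries, 8 residual degrees of freedom, no covariate). Intervals are limma's, at 95%. P-values are two-sided and adjusted by Benjamini-Hochberg over 14330 genes. The code of the fit was also run on simulated data with independent noise in each library, a check of the code and not of these results.

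Groups and replicate numbers come from the sample titles, and the series describes the replicates as biological. Members and lists were chosen with earlier results of these data known. Named genes were the 9 members, up to 4 genes per interferon list with the smallest p plus any called, the 3 highest genes of each of 13 marker lists (of which only those beside a result are given), and the 8 genes most like the members; the text marks others as chosen later. Correlations used 100000 permutations. Positions are from GENCODE M21 and promoters from RefSeq, both on GRCm38. Alternatives covered pseudocount, filter, scaling, variance model, library weights, samples fitted, replicate block and leaving out each library. Figures were drawn with matplotlib.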

Additional observations from a re-analysis of the deposited data

Results flagged for a closer look

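Slfn5, an antiviral effector outside the 9 genes, was the only gene of the interferon lists whose changes in the knockouts differed by a test of the difference itself, with a log2 difference of 0.57 between Prkci cKO and Prkcz cKO (limma adjusted p = 0.0412, higher in 4 of 4 Prkci cKO libraries than in any Prkcz cKO library). Of all genes tested, 7.36% were higher without overlap in the same way. Under 20 alternatives the call of Slfn5 held in 11 and ended in 9, where limma adjusted p lay between 0.0506 and 0.142. In the 18 groups of 4 libraries checked among the 9 genes, no library stood far enough from the others to be singled out (a gap over 0.829 of the group's range); groups of 3 were not checked.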

How the results depend on the processing

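None of the 9 genes was called in any of 576 refitted values; the lowest adjusted p was 0.0548 (Ifitm3 between the knockouts, library weights), and 28 values changed sign. With the 3 comparisons ordered as Prkci cKO and Prkcz cKO relative to controls (A and B) and the knockouts relative to each other (C), the medians of the 9 genes ran, with 1 library left out, from 0.12 to 0.27, -0.19 to -0.11 and 0.26 to 0.45. Relative to only the f/+ controls, an alternative chosen after the values were seen, median A was 0.31. The counts of all genes called (230, 93 and 43) ran from 95 to 349, 13 to 111 and 10 to 152 with 1 library left out; they were 132 (A) and 59 (B) with only the f/f controls, 30 without a variance trend and 29 with only the 2 groups fitted (B), and with library weights 346 (A) and 112 (C). Genes called in the other interferon lists (0, 1 and 1) ran from 0 to 0, 0 to 1 and 0 to 1 with 1 library left out; they were 1 with only the f/f controls (A), 0 without a variance trend (B and C), 0 with only the 2 groups fitted (B) and 2 with library weights (C). Values that changed sign were, with only the f/f controls, Ifit1 (-0.12), Ifitm3 (-0.05) and Ifih1 (0.0049) in Prkci cKO and Ifit3 (-0.10) and Ifih1 (0.00317) in Prkcz cKO; with only the f/+ controls, Ifit1 (0.17) and Irf7 (0.27) in Prkcz cKO; with library weights, Ifit3 (-0.01) and Ifih1 (0.04) in Prkcz cKO and Ifih1 (-0.08) between the knockouts; and with quantile scaling, Slfn5 (0.02) in Prkci cKO. With 1 library left out, signs changed in Prkcz cKO for Ifit3 (-0.00123 to 0.17), Ifit1 (-0.29 to 0.03), Irf7 (-0.16 to 0.20), Oasl2 (-0.30 to 0.02), Bst2 (-0.30 to 0.00416) and Ifih1 (-0.14 to 0.02), in Prkci cKO for Slfn5 (-0.08 to 0.05), and between the knockouts for Ifih1 (-0.06 to 0.10) and Stat2 (-0.02 to 0.05). With the replicate number as a block the counts of all genes called were 263, 69 and 73, and Irf7 in Prkcz cKO had the opposite sign (0.01). Same-numbered libraries of different groups correlated in their deviations at -0.186 to 0.196, with 5 of 10 pairs over 0.1. Of 11 libraries, 6 were closest to a library of their own number. Whether the numbers mark animals that belong together cannot be settled from these values. The cause of these changes was not tested. Depth limits Irf7 and Bst2 most, at 21 to 60 and 21 to 57 reads per library.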
